A study of Mus musculus with 12 samples.

Results

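Promoters that were accessible in MEFs transformed with Hdac7SA and Mef2d, and not in either line transformed with Hras, were examined with ATAC-seq, an assay that marks accessible DNA by where a transposase can cut and tag it. The cells were mouse embryonic fibroblasts (MEFs). The labels name OG2 MEFs, while their growth protocol names E13.5 embryos and a wildtype ICR background. OG2 and ICR are separate sources in the study's methods, so the background of the libraries could not be settled from the labels. Hdac7SA is a form of the class IIa histone deacetylase Hdac7 with serines exchanged for alanines, which keeps it in the nucleus, and Mef2d is a MADS-box transcription factor of the MEF2 family. Hras, written Ras in the labels and given as an oncogenic mutant in the paper, was combined with the adenoviral protein E1A (Hras.E1A) or with the transcription factor Myc (Hras.Myc). Hdac7SA.Mef2d cells were untreated. Hras.E1A and Hras.Myc cells were either treated for 2 days with PD, the MEK inhibitor PD0325901, or with TSA, the histone deacetylase inhibitor trichostatin A, or left untreated. TSA groups had 1 library each and the other 5 groups had 2, from about 50000 cells a library. The labels do not say whether a line was 1 clone or a pool, and wildtype MEFs were not analysed here.

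The deposited data were 1 peak list for each of the 7 groups, so replicate error could not be measured and no p-value is given. Peaks were merged across the 7 lists where they shared 1 bp or more, which gave 147985 loci. The 984 loci described here were chosen by their presence in the Hdac7SA.Mef2d list, their absence from the lists of untreated Hras.E1A and Hras.Myc cells, and a protein-coding transcription start site (TSS) within 1000 bp of the locus. They are called members below, and they made up 0.665% of all loci, 5.77% of the 17045 promoter loci and 6.39% of the 15398 promoter loci open in Hdac7SA.Mef2d. Open means that a list held a peak over the locus, and closed means that it held none. Closed is thus a statement about peak calling, and the depth of the libraries is unknown. All members were counted, with no filter on low scores.

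By comparison, 13509 promoter loci were open in all 3 untreated lines, and 570 were open in both Hras lines and not in Hdac7SA.Mef2d. A further 49511 distal loci, more than 1000 bp from any protein-coding TSS, had the same pattern as the members. The Hdac7SA.Mef2d list was also the longest, with 119251 peaks, against 56774 to 79687 in the 4 treated lists and 81201 (Hras.E1A) and 67738 (Hras.Myc) in the untreated ones. The part of this difference in the pattern of the members was not tested beyond the equal-length lists given below. Of 12 fibroblast marker genes, 12 had an open promoter locus in Hdac7SA.Mef2d and 9 to 11 in the other 6 lists, where Col1a2 and Thy1 were most often missing. Of 6 epithelial markers 6 were open in Hdac7SA.Mef2d and 4 to 6 in the other lists. In Hdac7SA.Mef2d 3 of 5 endothelial, 2 of 5 blood and macrophage, 3 of 5 neural and 2 of 6 muscle markers were open, against 1 to 3, 1 to 2, 3 to 4 and 0 to 4 in the other lists. The part of other cell types in the results was not tested. The promoters of Ptprc and Spi1 (blood), Cdh5 and Tie1 (endothelium), and Myf5 and Myog (skeletal muscle) were open in no list.

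As background, promoters of vertebrate genes fall into a CpG-rich kind, which is usually accessible in many cell types and carries binding sites for general factors such as KLF/SP, ETS and NFY, and a CpG-poor kind, which tends to open in particular tissues. MEF2 factors bind an AT-rich sequence at muscle genes and elsewhere, and class IIa histone deacetylases bind MEF2 and repress its targets. AP-1, the dimer of FOS and JUN proteins, lies downstream of RAS and MEK signalling.

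Several members held MEF2 letters in the central 200 bp. They are shown because Mef2d was 1 of the transgenes of the line in which they were open, and they include the promoters of muscle genes. The first 6 lines give the MEF2 match of members with a TSS inside the locus, and the next 3 give the AP-1 letters of members with high scores. The MEF2 match is of the strict form at Hspb3 and Aqp1. At Srpk3, Casq2, Tead1 and Fabp4 it is of a relaxed form, added after the data had been examined. The last line gives the KLF/SP letters of a member that was open in all 4 treated lists. All are printed in the direction of the gene from the mm10 genome (RefSeq GRCm38.p6), stop where an annotated exon begins, and carry the matched letters in capitals.
Srpk3, chrX:73774303-73774382, plus strand: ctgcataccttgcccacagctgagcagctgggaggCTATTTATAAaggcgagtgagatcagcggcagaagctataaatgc
Casq2, chr3:102086311-102086390, plus strand: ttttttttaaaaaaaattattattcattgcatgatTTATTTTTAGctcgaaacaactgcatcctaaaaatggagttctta
Hspb3, chr13:113663677-113663723, minus strand: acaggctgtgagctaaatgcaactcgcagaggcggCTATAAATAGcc
Aqp1, chr6:55336366-55336431, plus strand: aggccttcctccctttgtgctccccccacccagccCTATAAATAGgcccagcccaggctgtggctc
Tead1, chr7:112741977-112742044, plus strand: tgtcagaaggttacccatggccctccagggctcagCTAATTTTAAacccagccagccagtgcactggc
Fabp4, chr3:10208730-10208809, minus strand: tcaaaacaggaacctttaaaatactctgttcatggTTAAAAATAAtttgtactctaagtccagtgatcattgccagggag
Cytip, chr2:58161110-58161189, minus strand: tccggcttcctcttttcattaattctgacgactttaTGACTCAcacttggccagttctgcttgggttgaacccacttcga
Slco1a6, chr6:142186466-142186545, minus strand: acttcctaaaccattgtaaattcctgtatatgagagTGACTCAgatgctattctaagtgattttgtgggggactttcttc
Nrxn3, chr12:88953122-88953201, plus strand: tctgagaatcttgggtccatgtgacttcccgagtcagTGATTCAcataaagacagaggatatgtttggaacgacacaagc
Tnip1, chr11:54962925-54963004, minus strand: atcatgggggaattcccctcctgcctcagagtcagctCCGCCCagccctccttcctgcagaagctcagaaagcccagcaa

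The members were mostly CpG-poor. Their median GC content over 400 bp was 48.3% (quartiles 42.8% and 54.8%), against 64.8% in the promoter loci open in all 3 untreated lines and 42.0% in the distal loci with the same pattern. The median ratio of observed to expected CpG was 0.28 in members, against 0.80 in the promoters open in all 3 lines. CpG-rich loci, with a GC content of at least 50% and a ratio of at least 0.6, made up 109 of 984 members (11.1%, exact 95% interval 9.18 to 13.2%), against 78.2% of the promoters open in all 3 lines. The share was 35.2% of 1048 members with the lowest 25% of scores removed from every list, a cut that also removed weak untreated Hras peaks. It was 3.87% with lists of equal length and 3.42% with the lowest 25% removed from the Hdac7SA.Mef2d list alone. Intervals on shares are exact Clopper-Pearson intervals, those on ratios are on the log scale, and all cover the counting of loci only. In composition the members thus lay between the distal loci and the promoters open in every line.

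**Figure D1:**
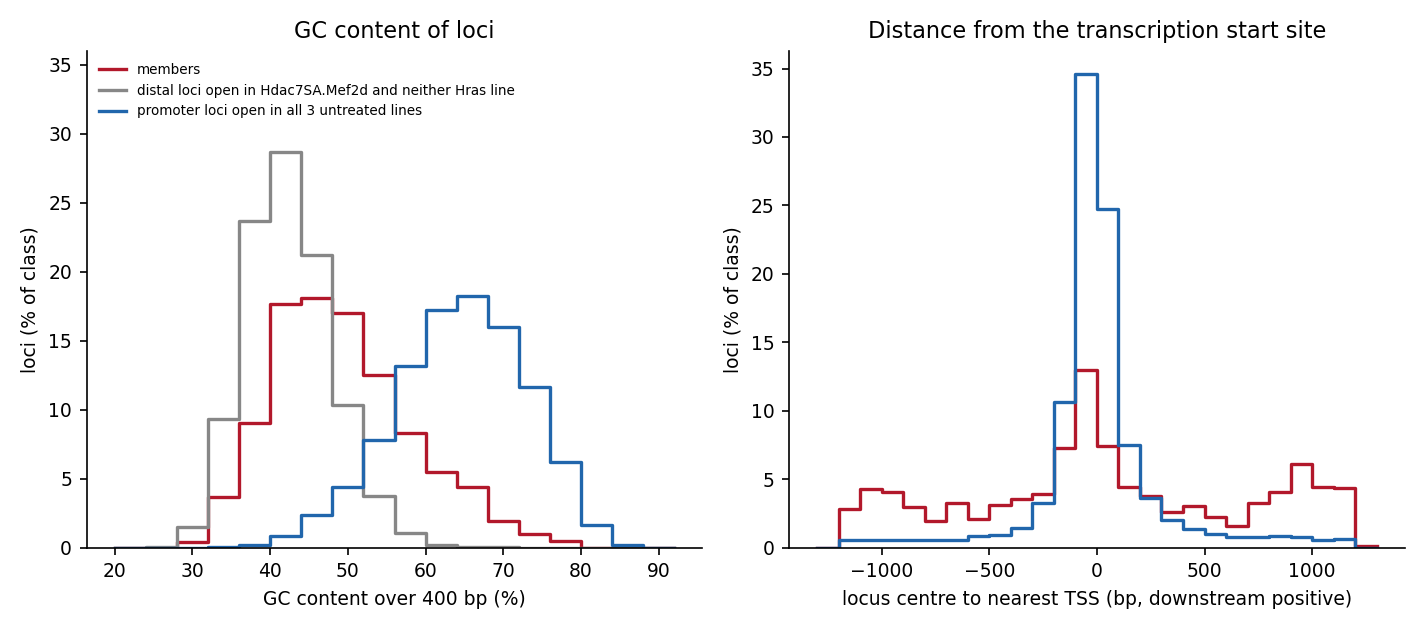
Left, GC content over 400 bp (%, 4-point bins) of the members, of the distal loci with the same pattern and of the promoter loci open in all 3 untreated lines, as a percentage of each class. Right, distance in bp from the locus centre to the nearest TSS (100-bp bins) for members and for the promoter loci open in all 3 untreated lines, where the members are spread broadly (32.2% within 200 bp of the TSS) and the promoters open in all 3 lines form a sharp peak (77.5%).

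Members also lay further from the start site. The TSS was inside the locus in 316 of 984 members (32.1%, 29.2 to 35.1%), against 77.8% of the promoters open in all 3 lines. The centre of the locus was in an intron for 453 members, outside any transcript for 334, in a UTR for 138 and in coding sequence for 59. The nearest TSS was the most upstream one of its gene for 571 members and an internal alternative start for the others. For 519 members (52.7%) the gene had another promoter locus open in an untreated Hras line, and for 465 (47.3%) it had none. In 190 cases the nearest TSS itself lay inside a locus open in an Hras line, so that these members are flanks of a promoter that was open in that line. The nearest untreated Hras peak was a median of 2764 bp away, within 500 bp for 93 members and beyond 10000 bp for 284. At least 1 distal locus of the same pattern lay within 10000 bp of 32.1% of members (29.2 to 35.1%), against 23.8% of the promoters open in all 3 lines. Within 50000 bp the shares were 79.7% and 77.4%.

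Scores in the Hdac7SA.Mef2d list took part in choosing the members and are given as a description. The authors' score has no stated scale, starts at about 1.2 in every list and is used here to rank peaks within a list. The median score of members was 3.05 (quartiles 1.78 and 5.46), which put the median member above 19.8% of the peaks of the list, against 51.4% for the promoters open in all 3 lines. Most members were therefore low-scoring peaks, with a tail of strong ones. Among the members with high scores were Gigyf2, which encodes a repressor of mRNA translation (22.8), Arhgap12, a GTPase-activating protein (17.2), Pik3cg, the gamma catalytic subunit of PI3-kinase known from leukocytes (15.7), and Cytip, a cytohesin-binding adaptor of lymphoid cells (15.5). At Gigyf2 and Arhgap12 the gene had another promoter locus that was open in an Hras line, and at Pik3cg and Cytip it had none. Gigyf2 and Arhgap12 were closed in all 4 treated lists.

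The distance rule cut through a continuous set of loci. The Rai2 and Vmn1r199 loci were the members farthest from a TSS, at 1000 bp, with scores of 2.62 and 6.58. The loci of Sfxn5 and Vwa1, at 1001 and 1002 bp, fell just outside and scored 1.99 and 1.73.

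The treated lists were not read when members were chosen, and they show which members had a peak in Hras cells after 2 days of PD or TSA. They may still not be independent of that choice, because the authors recovered low-scoring peaks with information shared across samples. Most members were low-scoring peaks of the Hdac7SA.Mef2d list. The part of this recovery in the shares below was not tested. A drug is said to have opened a member where the list of the treated line held a peak there. The word names the peak and not an effect of the drug. Members were chosen for lacking a peak in the untreated lists. There was no further untreated list, so the share that would gain a peak without a drug is unknown. PD opened 199 of 984 members in Hras.E1A (20.2%, 17.8 to 22.9%), against 11.2% of all 50495 loci of this pattern. With Hras.Myc cells PD opened 165 members (16.8%, 14.5 to 19.3%), against 10.6% of all loci of this pattern. TSA opened 176 members in Hras.E1A (17.9%, 15.5 to 20.4%), against 8.96%. With Hras.Myc cells TSA opened 168 members (17.1%, 14.8 to 19.6%), against 9.92%. Between 16.8% and 20.2% of members were thus open in each treated list, and 535 members (54.4%) were open in none. Openings in untreated and treated cells were read from separate lists, and no test of the difference between drugs or lines was possible without replicate lists.

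Members were open in the treated lists more often than the distal loci, and less so once base composition was matched. The ratio of the members' share to that of the distal loci was 1.83 (1.61 to 2.08) for Hras.E1A+PD, 1.59 (1.38 to 1.84) for Hras.Myc+PD, 2.04 (1.78 to 2.33) for Hras.E1A+TSA and 1.75 (1.52 to 2.01) for Hras.Myc+TSA. After the distal loci were weighted to the GC content of the members, the ratios were 1.21 (1.05 to 1.38), 1.05 (0.90 to 1.22), 1.49 (1.28 to 1.72) and 1.13 (0.97 to 1.31) in the same order. The intervals of Hras.Myc+PD and Hras.Myc+TSA then held 1. With all 7 lists brought to the length of the shortest, 284 members were left, and the unweighted ratios for PD were 2.27 (1.87 to 2.77) for Hras.E1A and 1.95 (1.56 to 2.44) for Hras.Myc. Those for TSA were 1.39 (0.95 to 2.03) and 1.29 (0.90 to 1.83), with intervals that held 1. With the lowest 25% of scores removed from every list the ratios moved the other way, to 2.60 (Hras.E1A+PD), 2.15 (Hras.Myc+PD), 2.98 (2.64 to 3.36, Hras.E1A+TSA) and 3.49 (3.13 to 3.89, Hras.Myc+TSA). This setting gave 1048 members, against 439 when the Hdac7SA.Mef2d list alone was cut. Many of the 1048 had an untreated Hras peak that the cut removed, so these ratios describe a different set of loci.

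**Figure D2:**
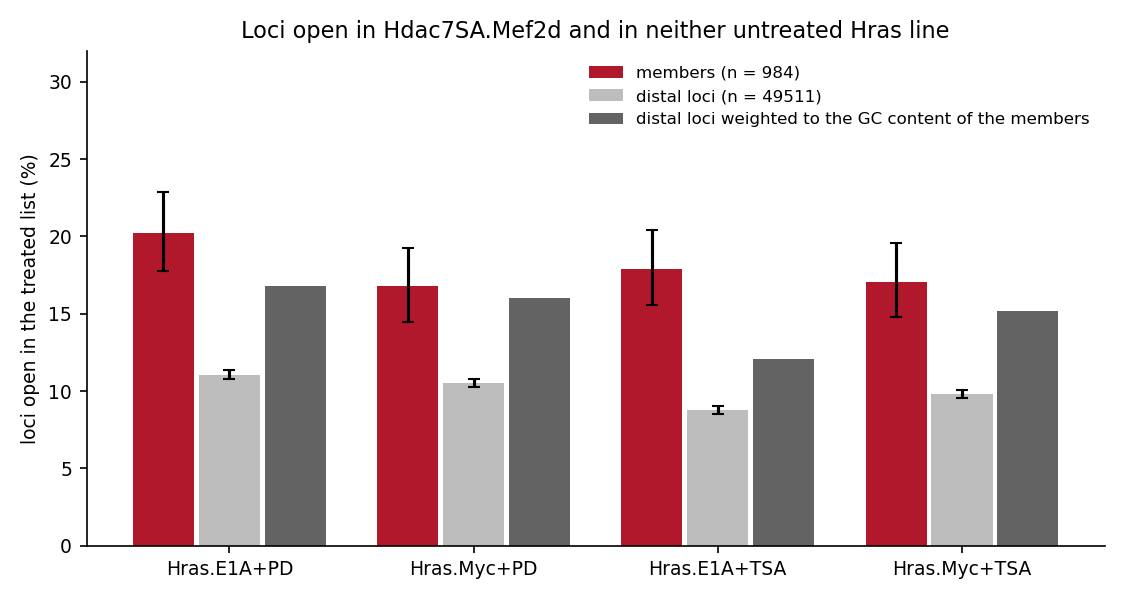
Percentage of loci open in each treated list, for members (n = 984, red), for the distal loci with the same pattern (n = 49511, light grey) and for these distal loci weighted to the GC content of the members (dark grey). Error bars are exact 95% intervals on the counted shares and the weighted bars have none. The red bars lie between 16.8% and 20.2% and the dark bars between 12.04% and 16.8%.

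CpG-rich members opened more often than CpG-poor ones in every treated list but Hras.Myc+TSA. With PD, 42 of 109 CpG-rich members were open in Hras.E1A (38.5%, 29.4 to 48.3%), against 17.9% of the 875 CpG-poor ones. In Hras.Myc the PD shares were 28.4% (20.2 to 37.9%) and 15.3%. TSA opened 33.9% (25.1 to 43.6%) of CpG-rich members in Hras.E1A, against 15.9% of CpG-poor ones. In Hras.Myc the TSA shares were 16.5% (10.1 to 24.8%) and 17.1%, with no such gap. The split was not particular to members. Of the distal loci of the same pattern, 27.7% of the CpG-rich and 11.0% of the CpG-poor were open in Hras.E1A+PD. These distal shares were 19.9% and 10.5% for Hras.Myc+PD and 21.3% and 8.75% for Hras.E1A+TSA. For Hras.Myc+TSA they were 14.9% (9.46 to 21.9%) and 9.77%. Members beyond 10000 bp from any untreated Hras peak opened less often than members within 1000 bp of one. For Hras.Myc+PD these shares were 8.45% (5.49 to 12.3%) and 20.4% (16.2 to 25.1%), and for Hras.E1A+PD they were 14.8% (10.9 to 19.5%) and 22.5% (18.1 to 27.3%), with intervals that overlapped. The lowest 25% of members by score in Hdac7SA.Mef2d were open more often than the highest 25% in all 4 treated lists. Their intervals overlapped in each list, but overlap of separate intervals, here or for distance, does not show equal opening. For Hras.Myc+PD and also for Hras.E1A+TSA the shares were 20.3% (15.5 to 25.9%) and 12.2% (8.38 to 16.9%). Of the lowest 25% of members by score 21.5% were open in Hras.Myc+TSA (16.6 to 27.2%), against 12.2% of the highest 25% (8.38 to 16.9%), and for Hras.E1A+PD the shares were 24.4% (19.2 to 30.3%) and 17.5% (12.9 to 22.8%).

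The lists differed in which members they held. Of the 449 members open in at least 1 treated list, 254 were open in exactly 1, 142 in 2, 42 in 3 and 11 in all 4. PD opened 84 members in both lines, which was 42.2% of those opened in Hras.E1A and 50.9% of those opened in Hras.Myc. For the distal loci these shares were 45.2% and 47.5%. TSA opened 61 members in both lines, 34.7% of those in Hras.E1A and 36.3% of those in Hras.Myc, against 24.9% and 22.3% for the distal loci.

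Among the members open in all 4 treated lists, Aqp1, the gene of a water channel, had the highest score in Hdac7SA.Mef2d. Its scores were 8.28 in Hdac7SA.Mef2d, 5.21 in Hras.E1A+PD, 6.48 in Hras.Myc+PD, 2.83 in Hras.E1A+TSA and 2.36 in Hras.Myc+TSA. Within its own list the peak exceeded 77.7%, 35.5%, 58.1%, 16.0% and 13.6% of the peaks in that order, so that it ranked lower in the TSA lists than in the PD lists. Its 200-bp centre held both the MEF2 and the KLF/SP letters. The second was Tnip1, whose product restrains NF-κB signalling, with scores of 3.08 in Hdac7SA.Mef2d and 4.90, 4.38, 2.43 and 2.07 in the 4 treated lists in the same order. The others with an official gene name were Gdf5 (a BMP-family ligand), Maf (a basic leucine zipper factor), Pgrmc1 (a heme-binding membrane protein), Pbxip1 (a PBX-binding protein), Glis2 (a zinc finger factor), Rpp25l, Plcd3 (a phospholipase C) and Rassf5 (a RAS-binding protein). Their scores in Hdac7SA.Mef2d were low, from 1.42 to 2.26.

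Next came the members open in both PD lists and in neither TSA list. Klhl38, a kelch protein gene expressed in muscle, scored 9.73 in Hdac7SA.Mef2d, 6.18 in Hras.E1A+PD and 9.24 in Hras.Myc+PD, where it exceeded 86.2% of the list. Srpk3, a muscle kinase of splicing factors, scored 9.35, 8.34 and 4.07 in these lists, and Klhl31, a further kelch gene of muscle, 7.59, 5.10 and 6.19. Hsd11b1, the enzyme that regenerates active glucocorticoids, scored 9.54, 5.36 and 6.90. Others with high scores were Il31ra, Ifi47 and Serping1, which encode a cytokine receptor, an interferon-induced GTPase and the complement C1 inhibitor. Of the muscle list set out below, which holds neither Klhl31, Klhl38 nor Srpk3, Mybpc1 had this pattern.

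The members open in both TSA lists and in neither PD list included Xirp1, an actin-binding protein gene of the muscle list. Mcf2l, a guanine nucleotide exchange factor gene, scored 10.5 in Hdac7SA.Mef2d, 5.06 in Hras.E1A+TSA and 2.47 in Hras.Myc+TSA. Prl2c3, a gene of the prolactin family, scored 6.13, 4.15 and 6.13 in the same lists. Others were Xpnpep2 (an aminopeptidase), Grip2 (a scaffold of glutamate receptors), Cdh20 (a cadherin), Calhm5 and Bdkrb1 (the bradykinin B1 receptor).

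Genes were next grouped in 19 lists by pathway or cell type. A member lay within 1000 bp of a TSS of 957 genes, which was 4.38% of 21827 annotated protein-coding genes and 6.33% of the 15110 with any promoter locus. For 449 of the 957 genes no promoter locus was open in an untreated Hras line. In the opposite direction, 1100 genes (5.04%) had a promoter locus open in an untreated Hras line and closed in Hdac7SA.Mef2d. These shares are the background for the counts that follow, which are descriptions with no test.

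Muscle genes had the highest share of the 19 lists. Of 76 genes of muscle structure and its regulators, 18 had a member (23.7%, 14.7 to 34.8%), against 4.38% of all genes, and 7 had a locus of the opposite pattern (9.21%), against 5.04%. Counted by gene, 44 of the 76 had an open promoter locus in Hdac7SA.Mef2d, 30 in Hras.E1A+PD, 28 in Hras.Myc+PD, 29 in Hras.E1A+TSA and 27 in Hras.Myc+TSA. The untreated lists had 33 (Hras.E1A) and 30 (Hras.Myc). Over all genes the share with an open promoter locus was 65.9% for Hdac7SA.Mef2d, 65.6% for untreated Hras.E1A and 63.4% for untreated Hras.Myc. When only the 56774 highest peaks of each list were kept, 5 of the 76 genes had a member, against 1.31% of all genes. Of the factors that set up the muscle programme, Myf5 and Myog were closed in every list, and Myod1 was closed in Hdac7SA.Mef2d and open in 3 treated lists and untreated Hras.E1A. Myf6, a further such factor, was open in Hdac7SA.Mef2d, in both untreated Hras lists, in Hras.E1A+PD and in Hras.E1A+TSA. Cardiac troponin T (Tnnt2) was open in untreated Hras.E1A alone.

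Of the 18 muscle genes with a member, 14 had no promoter locus open in an untreated Hras line, and 7 of these were closed in every treated list as well. Lmod3, which encodes leiomodin of the thin filament, had the highest score with 11.0, at a locus just upstream of its TSS that exceeded 92.5% of the list. It was open in Hras.E1A+PD with a score of 3.00, above 13.97% of that list, and in no other treated list. Tcap (telethonin of the Z-disc) scored 7.46, Trdn (triadin, a calcium release protein) 5.43 and Klhl41 (a kelch protein of the sarcomere) 5.33, and all 3 were closed in every other list. So were Mstn (myostatin, 3.25), Casq2 (cardiac calsequestrin, 1.78) and Acta1 (skeletal alpha-actin, 1.52). Casq2 exceeded 6.12% of the list and Acta1 3.45%.

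Myoz2 (a calcineurin-binding Z-disc protein), Myl1 (a myosin light chain), Trim63 (the ubiquitin ligase MuRF1) and Jph2 (junctophilin) were opened by PD in Hras.Myc alone. At Trim63 the score was 2.82 in Hdac7SA.Mef2d and 6.39 in Hras.Myc+PD, above 17.4% and 56.8% of the peaks of these lists, and at Myl1 it was 3.88 and 6.59, above 29.5% and 59.8%. Mb (myoglobin) was opened by TSA in Hras.Myc, and Xirp1 by TSA in both lines. Mybpc1 (a myosin-binding protein) was opened by PD in both lines, and another promoter locus of the gene was open in untreated Hras.Myc. At Des (desmin), Fhl1 (a LIM-domain protein) and Klhl40 the member was closed in both untreated Hras lists while another promoter locus of the gene was open in at least 1 of them. The Des member lay 634 bp from an Hras peak and was open in Hras.E1A+PD with a score of 1.67, against 7.44 in Hdac7SA.Mef2d. By member locus, PD opened 4 of the 18 genes in the Hras.E1A line and 5 in the Hras.Myc line, and TSA opened 1 and 2. Over all members the shares were 20.2% and 16.8% for PD and 17.9% and 17.1% for TSA, and with 18 genes no difference from them is read.

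**Figure D3:**
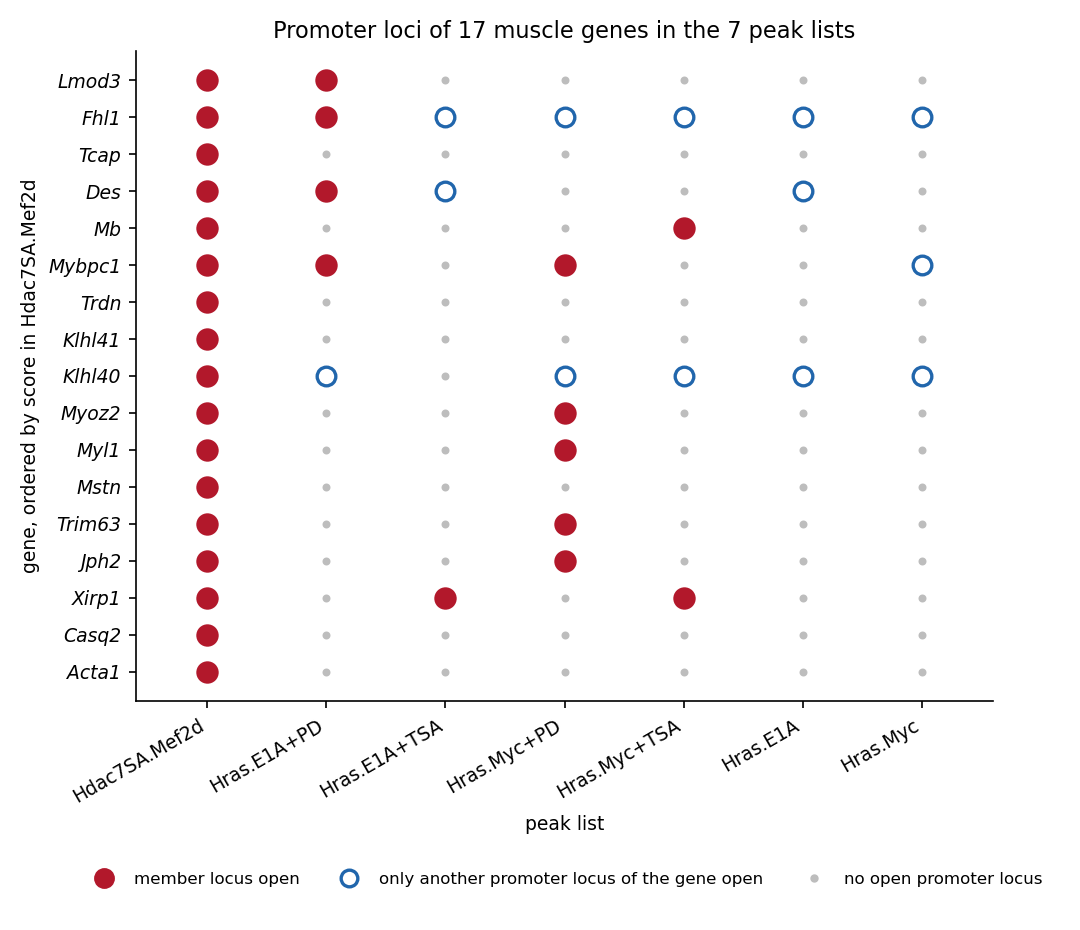
Promoter loci of 17 of the 18 muscle genes with a member (rows, ordered by score in Hdac7SA.Mef2d) in the 7 peak lists (columns). A filled circle marks the member as open, a ring marks that only another promoter locus of the gene was open, and a small dot marks no open promoter locus. The Hdac7SA.Mef2d column is filled by the choice of members, the 2 untreated Hras columns hold rings at 4 genes, and the treated columns hold 1 to 5 filled circles each.

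Fibroblast genes were the next group. Of 22 fibroblast identity factors, 5 had a member (22.7%, 7.82 to 45.4%), namely Zeb1, Zeb2, Runx1, Cebpb and Prrx1, and 3 had a locus of the opposite pattern (13.6%), against 5.04% of all genes. In all 5 genes another promoter locus was open in an untreated Hras line. Their scores were low, with 2.07 at Zeb2 (a repressor of epithelial genes), 2.06 at Runx1 (a RUNX factor), 1.81 at Cebpb and 1.29 at Prrx1 (a homeobox factor of mesenchyme). Of 36 fibroblast and matrix genes, 4 had a member (11.1%, 3.11 to 26.1%) and none had a locus of the opposite pattern. Col1a2 and Col1a1, the chains of type I collagen, scored 3.43 and 3.06, Col6a3 scored 1.74 and Pdgfra, the receptor of PDGF, 1.35. The Col1a2 member began 62 bp from the TSS and had no other promoter locus open in an untreated Hras line, and it was open in Hras.E1A+PD with 3.85. The Col1a1 member lay 310 bp from an Hras peak. Of the 8 MEF2 and class IIa histone deacetylase genes, 1 had a member, Hdac9, with a score of 3.96 in Hdac7SA.Mef2d and 2.90 in Hras.E1A+TSA.

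In the other lists 0 to 11.4% of genes had a member. TGF-β and BMP genes had 4 members of 44 genes (Acvr1, Gdf5, Smad5 and Id2), chemokines and cytokines 4 of 35 (Cxcl15, Ccl8, Il33 and Cxcl14), neural genes 4 of 42 and interferon and antigen presentation genes 3 of 55. Loci of the opposite pattern lay at 3 TGF-β and BMP genes, 3 chemokine and cytokine genes, 9 neural genes (21.4%) and 8 interferon and antigen presentation genes (14.5%). Hox genes had 2 of 39 and WNT genes 2 of 47, while 10 Hox genes and 11 WNT genes had a locus of the opposite pattern (25.6% and 23.4%). Epithelial genes had 2 of 49 (Itgb6 and Dsc2), endothelial genes 2 of 23 (Erg and Sox17) and blood and macrophage genes 1 of 37 (Lyz2). Pluripotency genes had 1 of 37, Lefty2, germline genes 1 of 43, Dazl, and p53 and RB checkpoint genes 1 of 32, Cdkn2a. ERK targets and feedback regulators had 0 of 35, which allows a share of up to 10.0% at the bound of the exact interval, and their promoters were open in all 3 untreated lines at 34 of the 35 genes. Housekeeping genes had 0 of 20 and cell cycle genes 1 of 36, Bub1, at a locus 665 bp from an Hras peak.

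**Figure D4:**
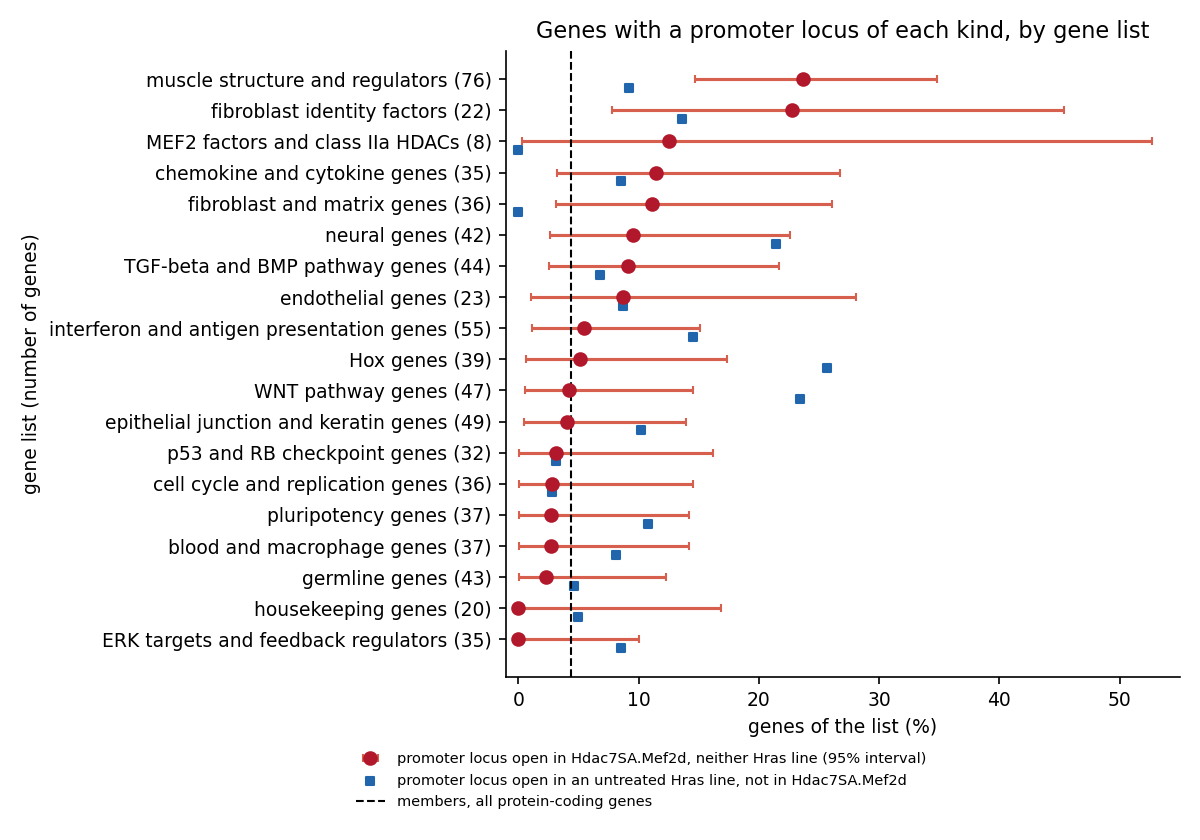
Percentage of genes in each of 19 lists that had a member (red circles with exact 95% intervals) or a promoter locus open in an untreated Hras line and closed in Hdac7SA.Mef2d (blue squares). The number of genes is in brackets and the dashed line marks the 4.38% of all protein-coding genes that had a member. Muscle genes lie at 23.7% and the blue squares of Hox and WNT genes at 25.6% and 23.4%.

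Large gene families known from other tissues also had members. Of 1091 olfactory receptor genes 21 had a member (1.92%), below the 4.38% of all genes. Only 36 of them had any promoter locus, and 58.3% of these had a member, against 6.33% over all genes. A gene can enter this second count through the Hdac7SA.Mef2d list alone, which was the longest. Shares of genes with a promoter locus are thus partly set by the choice of members. Of 330 vomeronasal receptor genes 6 had a member (1.82%), out of 8 with a promoter locus. Keratin-associated proteins had 6 of 9 and serpins 9 of 22 with a promoter locus, or 10.5% and 14.8% of the annotated genes. None of these 21 and 6 receptor genes had a promoter locus open in an untreated Hras line. Zinc finger (Zfp) genes had a member at 7 of 348 genes with a promoter locus (2.01%) and at 1.78% of annotated genes. Ribosomal protein genes had 0 of 78 with a promoter locus. Among the olfactory receptor genes, Olfr97 and Olfr435 scored highest with 13.3 each. No measure of transcription was used here.

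Several genes had more than 1 member. Adgrv1 (an adhesion receptor of the ear and eye), Mas1 (a receptor of the angiotensin system) and Vmn1r210 had 3 each. The Mylk3 gene, which encodes cardiac myosin light chain kinase, had 2. Its member at an internal start site scored 10.5 in Hdac7SA.Mef2d, 9.26 in Hras.E1A+PD, 12.7 in Hras.Myc+PD and 3.47 in Hras.Myc+TSA. This locus exceeded 97.3% of the Hras.Myc+PD list, against 90.5% of the Hdac7SA.Mef2d list. The member at the most upstream start scored 4.22 and was closed in every treated list. Fabp4, the fatty acid-binding protein of adipocytes, had 2 members, with 9.90 and 1.34, and both were closed in every other list.

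The Y chromosome held 4 promoter loci, and all 4 were members. Kdm5d scored 4.93, Eif2s3y 7.62, Uty 7.59 and Ddx3y 7.74 in Hdac7SA.Mef2d, and none had a peak in an untreated Hras list. In Hras.E1A+PD, Uty scored 9.18 and Ddx3y 13.7, and in Hras.E1A+TSA, Eif2s3y scored 7.64, Uty 6.30 and Ddx3y 4.71. None of the 4 had a peak in either treated Hras.Myc list. Over the whole Y chromosome there were 12 peaks for Hdac7SA.Mef2d, 4 in Hras.E1A+PD, 10 in Hras.E1A+TSA and 3 in untreated Hras.E1A, and 6 to 7 in the 3 Hras.Myc lists. The 4 genes lie outside the pseudoautosomal region, and the sex of the embryos is not given in the labels. Whether the untreated and treated Hras.E1A libraries differed in their share of cells with a Y chromosome was not tested. On the autosomes alone there were 942 members, of which 20.1% were open in Hras.E1A+PD and 17.6% in Hras.E1A+TSA.

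None of the genes used to transform the cells had a member. The single promoter locus of Mef2d and the 3 of Hdac7 were open in all 3 untreated lines, as were 1 of the Hras loci and 2 of the Myc loci. A further Hras locus was closed in all 3 untreated lines and open in the Hras.E1A+PD and Hras.Myc+PD lists alone. A further Myc locus was open in untreated Hras.Myc and in Hras.Myc+PD alone. Cdkn2a, which encodes p16 and p19ARF, had a member with a score of 1.49 that lay 95 bp from an Hras peak and was closed in all treated lists, while 2 other promoter loci of the gene were open in all 7 lists.

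Sequence was compared over the central 200 bp with 27 motifs on both strands. The comparison was with the promoter loci open in all 3 untreated lines, weighted to the members' GC content, since the unweighted shares follow base composition. Members held the letters of general promoter factors less often than these weighted promoters. The KLF/SP letters GGGCGG were in 110 members (11.2%, 9.28 to 13.3%), against 22.8% of the weighted promoters, a ratio of 0.49 (0.39 to 0.61), and in 52.0% of all promoter loci. The ETS letters CCGGAA had a ratio of 0.38 (0.27 to 0.55), and the NFY letters CCAAT, in 20.8% of members, a ratio of 0.65 (0.55 to 0.76). The shares of all promoter loci with these letters were 17.5% and 27.1%. Against the GC-weighted distal loci of the same pattern the direction turned for KLF/SP, with a ratio of 1.33 (1.09 to 1.61), and for ETS, with 1.34 (0.98 to 1.84), an interval that held 1, while NFY had 0.99 (0.87 to 1.13). The CTCF motif had a ratio to the weighted promoters of 0.16 (0.07 to 0.39), with 6 members.

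Letters for TATA, the muscle-type E-box and TEAD were more frequent in members than in the weighted promoters, but not than in the GC-weighted distal loci with the same pattern. The TATA letters TATAAA were in 120 members (12.2%), against 7.35% of the weighted promoters (ratio 1.66, 1.204 to 2.29) and 3.56% of all promoter loci. The ratio to the weighted distal loci was 0.97 (0.81 to 1.16). The E-box CAGCTG was in 153 members (15.5%, ratio 1.46, 1.12 to 1.91), against 12.4% of all promoter loci, with a ratio to the weighted distal loci of 0.88 (0.75 to 1.03). The TEAD letters GGAATG were in 163 members (16.6%) with a ratio of 1.35 (1.06 to 1.74), but against the GC-weighted distal loci with the same pattern the ratio was 0.71 (0.61 to 0.82). In all promoter loci they were in 7.90%. The AP-1 letters TGANTCA were in 154 members (15.7%), against 19.6% of the weighted promoters (ratio 0.80, 0.64 to 0.99) and 18.1% of the weighted distal loci (ratio 0.86, 0.74 to 1.01). Without weighting the AP-1 ratio to promoters was 3.32, since only 4.71% of the promoters open in all 3 lines held these letters, and 6.52% of all promoter loci did.

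The IRF motif, bound by interferon regulatory factors, was in 40 members (4.07%), with a ratio of 1.45 (0.84 to 2.50) to the weighted promoters and of 1.73 (1.23 to 2.44) to the weighted distal loci, and in 1.62% of all promoter loci.

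The strict MEF2 motif was in 12 members (1.22%), against 0.46% of the weighted promoters, a ratio of 2.63 with an interval of 0.75 to 9.30 that held 1. A relaxed form of the motif, added after the data had been examined, was in 67 members (6.81%, 5.32 to 8.57%), against 2.32% of the weighted promoters (ratio 2.93, 1.69 to 5.08) and 0.92% of all promoter loci. Against the GC-weighted distal loci the ratio was 1.25 (0.97 to 1.61), with an interval that held 1. In 18 of the 67 members the MEF2 match overlapped TATAAA letters on either strand. At Aqp1 the centre of the MEF2 match lay 26 bp upstream of the TSS, where a TATA box can lie, at Srpk3 62 bp upstream and at Casq2 64 bp upstream. The TSS lay inside the locus in 17 of the 67. The match of Hspb3, a small heat shock protein gene of muscle, lay 8 bp upstream of the annotated start. At Tead1, the gene of a TEAD factor, it lay 28 bp upstream of an internal start, and at Fabp4 194 bp upstream. The members with the relaxed motif were open in none of the treated lists in 48 of 67 cases (71.6%), against 54.4% of all members. After GC weighting the ratio of members with the relaxed motif to those without was 0.61 (0.28 to 1.34) for Hras.E1A+PD, 1.01 (0.51 to 2.01) for Hras.Myc+PD, 0.79 (0.38 to 1.64) for Hras.E1A+TSA and 0.61 (0.28 to 1.35) for Hras.Myc+TSA, and all 4 intervals held 1.

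Members with AP-1 letters were open in the PD lists less often than members without them, and the gap was smaller after GC weighting. In Hras.E1A+PD 16 of 154 members with AP-1 letters were open (10.4%, 6.06 to 16.3%), against 22.0% of the 830 without. After those without were weighted to the same GC content the share was 15.2%, and the ratio was 0.68 (0.41 to 1.13). In Hras.Myc+PD the weighted ratio was 0.83 (0.50 to 1.39). With TSA the weighted ratios were 1.47 (0.97 to 2.21) for the Hras.E1A line and 1.43 (0.97 to 2.10) for the Hras.Myc line. All 4 intervals held 1, which leaves the difference unshown but does not show equal opening. For the distal loci of the same pattern only shares without GC weighting were taken. With and without AP-1 letters these were 3.62% and 13.5% for Hras.E1A+PD and 4.26% and 12.6% for Hras.Myc+PD. They were 14.3% and 6.95% for Hras.E1A+TSA and 12.2% and 8.99% for Hras.Myc+TSA. Of the AP-1 members shown above, Slco1a6, an organic anion transporter gene, and Nrxn3, a neurexin gene, were closed in every treated list, and Cytip was open in Hras.E1A+PD alone with a score of 7.59. KLF/SP letters went with more frequent opening, with 37.3% in Hras.E1A+PD against 18.1% without them, and here too the weighted ratio of 1.27 (0.92 to 1.76) had an interval that held 1.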

How the data were processed

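ATAC-seq libraries of 12 samples in 7 groups were represented by 7 BED files, 1 for each group, with replicates pooled. Per the submitters' processing notes and the study's methods, the authors aligned reads to mm10 with Bowtie2 2.4.5, called peaks with MACS2 2.2.7.1 and recovered low-scoring peaks across samples. The deposited score of each 400-bp peak has no stated scale and served here for ranks inside 1 list. The sources used here do not state the depth per sample. Peaks of the autosomes and of X and Y were merged where they overlapped by 1 bp. TSS were those of protein-coding transcripts in GENCODE M21 basic, and sequence was read from RefSeq GRCm38.p6. CpG content was taken over 400 bp and motifs over the central 200 bp, with GC weighting in 10 bins. Shares have exact 95% (Clopper-Pearson) intervals from scipy 1.17.1, with numpy 2.4.6 and pandas 2.3.3 under python 3.11.15. Figures were drawn with matplotlib 3.10.9. The steps were tested on simulated lists.

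The members, the gene lists, the motifs and the rules for naming loci were chosen with earlier results of these data known. Named loci were the 20 with the highest score, those open in all 4 treated lists, up to 8 each open in both lists of 1 drug and neither of the other, genes with 2 or more members, up to 4 genes of each list and loci next to the 1000-bp limit, and the text prints part of them. Further muscle, Y-linked and motif-bearing loci were named after their values were seen. Some loci are not reported here. With 1 list a group, no test between groups was run. The alternatives were a locus covered to 50%, no Hras peak within 500 bp, reciprocal overlap of 50%, a TSS within 500 bp, removal of the lowest 25% of scores, lists of equal length, autosomes only, no TSA lists and the most upstream TSS of each gene.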

Additional observations from a re-analysis of the deposited data

How the results depend on the processing

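The number of members, the shares opened, the CpG-rich share and the muscle count stayed within 1.5 times (counts) or the interval (shares and ratios) of their reported values under the coverage of 50% of a locus, the absence of Hras peaks within 500 bp, the reciprocal overlap, the autosomes and the catalogue without TSA lists. With a TSS within 500 bp there were 606 members, 22.9% of them open in Hras.E1A+PD. With the most upstream TSS of each gene 13.4% were CpG-rich. With the lowest 25% of every list removed there were 1048 members, many of which had an untreated Hras peak that the cut removed. Of these 1048, 35.2% were CpG-rich. The shares opened were 26.0% (Hras.E1A+PD), 20.6% (Hras.Myc+PD), 21.8% (Hras.E1A+TSA) and 25.8% (Hras.Myc+TSA), and the ratios to distal loci were 2.60, 2.15, 2.98 and 3.49 in that order. With lists of equal length there were 284 members at 5 muscle genes, 3.87% of them CpG-rich, with shares of 26.8%, 21.5%, 8.80% and 9.86% and ratios of 2.27, 1.95, 1.39 and 1.29 in the same order. With the lowest 25% of the Hdac7SA.Mef2d list alone removed, a setting chosen after seeing the data, there were 439 members at 11 muscle genes, 3.42% of them CpG-rich. Of these 12.5% were open in Hras.Myc+PD, 13.2% in Hras.E1A+TSA and 11.8% in Hras.Myc+TSA, with ratios of 1.29, 1.57 and 1.30. Weighting the distal loci, also chosen after seeing the data, gave ratios of 1.21, 1.05, 1.49 and 1.13 in the order of the first list for GC content, and 1.19, 1.03, 1.44 and 1.09 for GC content and score. Without GC weighting the AP-1 ratio was 3.32 and so reversed. The causes were not tested. No paired analysis was possible because the replicates were pooled in 1 list a group, and for the same reason no replicate could be left out. Low-scoring peaks and unknown depth limit what a closed locus means.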
